A study of Rattus norvegicus with 100 samples.

Results

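The growth of the response to 1 µM GW7647 between 2 and 6 h was measured in primary rat hepatocytes as a difference of differences, the change at 6 h (1 µM minus 0 µM) minus the change at 2 h. It rests on 14 of the 100 arrays of the series, chosen by time and concentration alone. GW7647 is a synthetic agonist of the nuclear receptor PPARα. The groups were 4 cultures with 1 µM for 6 h (rats Rs627, Rs628, Rs631 and Rs632), 4 with 0 µM for 6 h (the same rats), 3 with 1 µM for 2 h (Rs628, Rs631 and Rs632) and 3 with 0 µM for 2 h (Rs627, Rs631 and Rs632). Every culture was plated on collagen IV under Geltrex in William E medium with a maintenance supplement. The labels name the rats as biological replicates. Strain, sex and age of the rats, and whether 0 µM cultures received the solvent, are not given in the labels used here.

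PPARα binds DNA as a partner of the retinoid X receptor and switches on genes of fatty acid breakdown when a ligand enters the cell. In liver it is known for the response to fasting, in which fatty acids are carried into mitochondria through the carnitine shuttle and shortened there and in peroxisomes. In rodents its agonists also enlarge the peroxisome compartment. The contrast of 6 with 2 h orders genes by time alone and does not separate those the receptor binds from those that follow.

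The arrays carried the labelled cell type: 18 of 18 hepatocyte markers lay above a log2 value of 5, taken here as the detection floor, in all 14 arrays. At or under 5 in all 14 were 7 of 10 macrophage markers, 5 of 10 stellate cell markers, 7 of 8 endothelial markers and 3 of 7 bile duct markers, with Ptprc, Adgre1, Pecam1, Stab2 and Sox9 among them. Above 5 in all 14 were 2 macrophage markers (Lyz2, 8.45 to 9.65, and Cd14, 8.45 to 9.64), 1 stellate cell marker (Acta2, 5.50 to 6.79), 1 bile duct marker (Epcam, 9.90 to 11.11) and 0 endothelial markers. Of 18 tested hepatocyte markers none passed the threshold at 6 or 2 h, nor did any marker of the other cell types. The summed macrophage markers ranged from 9.90 to 10.23 at 1 µM and from 10.14 to 10.42 at 0 µM after 6 h, and from 9.96 to 10.51 at 1 µM and from 10.31 to 10.55 at 0 µM after 2 h (log2 of the sum), and their part in the results was not tested. The upper quartile of log2 intensity lay between 7.03 and 7.27 over the 14 arrays. The excess of the β-actin 3′ over the 5′ probe set, a sign of RNA quality, averaged 1.49 at 1 µM and 1.51 at 0 µM after 6 h, and 1.67 at 1 µM and 1.70 at 0 µM after 2 h (log2). In such bulk samples fewer cells of a type and less RNA per cell cannot be told apart.

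Of 8843 genes tested with limma (Benjamini-Hochberg adjusted p under 0.05), 153 were higher and 27 lower at 1 µM than at 0 µM after 6 h, which is 1.73% and 0.305% of the genes. After 2 h 31 genes were higher and 2 lower, 0.351% and 0.0226% of the genes, and these 33 are called the first wave. Of the first wave 27 genes also passed at 6 h, which is 81.8% of the first wave and 15% of the 6 h genes. The other 153 passed at 6 h and not at 2 h and are called the second wave, with 127 higher and 26 lower. Of the second wave, 148 of 153 already had the sign of their 6 h change at 2 h. The median log2 change of its 127 higher genes was 0.73 at 6 h and 0.29 at 2 h, and that of its 26 lower genes was -0.57 at 6 h and -0.16 at 2 h. The median over all genes was -0.06 at 6 h and 0.01 at 2 h. Leaving out 1 rat at a time gave 104 to 140 genes at 6 h and 10 to 22 at 2 h, with both lowest counts without Rs632, 109 and 21 without Rs627, and 17 at 2 h without Rs628.

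The growth itself passed the threshold for none of the 8843 genes (0%) with limma and group means alone. At an unadjusted p below 0.05, 87 genes lay above 0 and 52 below it, and the smallest adjusted p was 0.148, shared by Ehhadh, Pgrmc2 and Lonp2. The rats differed from each other in level, and at 2 h the 3 rats with 1 µM were not the 3 rats with 0 µM. Arrays of the same rat deviated together from their group means (median correlation 0.62, against -0.229 between rats), and all 14 arrays had an array of their own rat as the nearest. When the rat was added as a block to that limma fit, 9 genes passed for growth, 0.102% of the genes, and all 9 grew in the positive direction. The same block raised the count at 6 h to 261 higher and 155 lower (2.95% and 1.75%) and the count at 2 h to 66 higher and 8 lower (0.746% and 0.0905%). Without Rs628 and with no block, 4 genes passed for growth, Ehhadh, Pgrmc2, Acsl1 and Cpt2. The median standard error of a growth value was 0.22 with the block and 0.28 without it. These 9 are described next. They were singled out after their values were seen, since the rule for naming genes used the fit without the block.

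**Figure D1:**
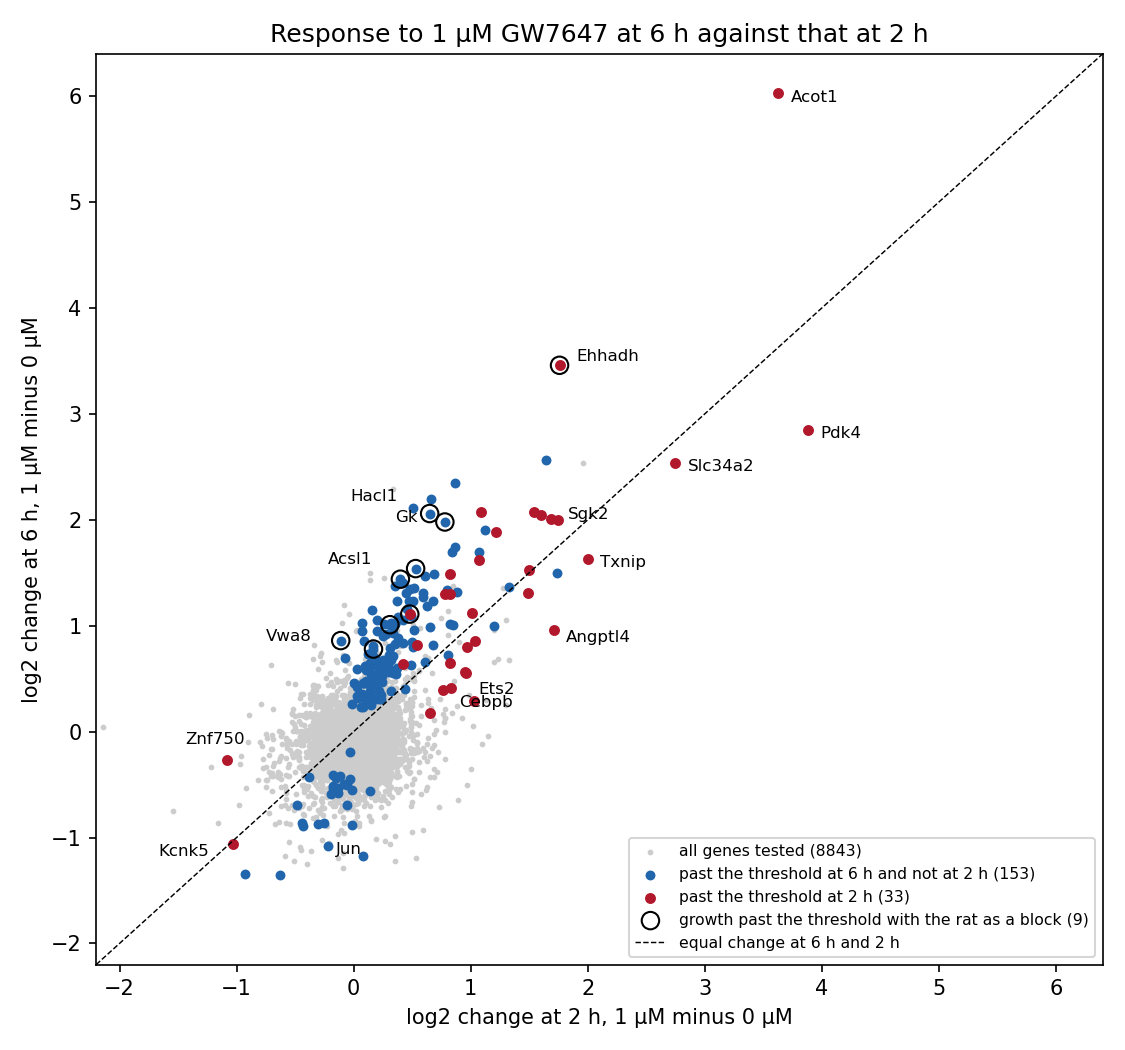
Each point is 1 of 8843 genes, with its log2 change at 2 h (1 µM minus 0 µM) across and at 6 h up, from the fit without the rat. The 33 first-wave genes are red, the 153 second-wave genes blue, and the 9 genes past the threshold for growth with the rat as a block are ringed and all lie above the dashed line of equal change, while Pdk4, Angptl4 and Txnip lie below it.

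Peroxisomal oxidation gave 2 of the 9. Ehhadh, the bifunctional enzyme that carries out the middle steps of peroxisomal β-oxidation, had log2 values of 11.67, 11.70, 11.30 and 11.48 at 1 µM after 6 h in rats Rs627, Rs628, Rs631 and Rs632, against 7.94, 9.13, 7.76 and 7.49 at 0 µM. After 2 h it had 10.46, 9.75 and 10.06 at 1 µM in Rs628, Rs631 and Rs632, against 8.63, 8.13 and 8.21 at 0 µM in Rs627, Rs631 and Rs632. The 1 µM arrays of 6 h lay above every 1 µM array of 2 h, and the 0 µM arrays of the times overlapped. The change was 11-fold at 6 h (log2 3.46, adjusted p = 1.44e-18) and 3.40-fold at 2 h (1.76, adjusted p = 4.58e-05, limma), a log2 growth of 1.69 ± 0.37 (SE, adjusted p = 0.148, limma). With the block the growth was 1.64 ± 0.33 (SE, adjusted p = 0.0155, limma). In the pair of rats with all 4 arrays the growth was 1.92 in Rs631 and 2.14 in Rs632. Ehhadh was the one enzyme of this list in the first wave, which rests on the fit without the block. Its growth did not pass in that fit and passed with the block, where Ech1, Eci2 and Crot of the list also passed at 2 h.

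Hacl1, the lyase that splits 2-hydroxyacyl-CoA in peroxisomal α-oxidation, did not pass at 2 h. Its log2 values were 10.33, 10.23, 9.67 and 9.99 at 1 µM after 6 h in Rs627, Rs628, Rs631 and Rs632, against 8.02, 8.74, 7.60 and 7.63 at 0 µM. After 2 h they were 9.34, 8.61 and 8.67 at 1 µM in Rs628, Rs631 and Rs632, against 8.67, 7.98 and 8.02 at 0 µM in Rs627, Rs631 and Rs632. At 2 h the groups overlapped through the high 0 µM array of Rs627, while within Rs631 and within Rs632 the 1 µM array was higher by 0.63 and 0.65. The growth with the block was 1.31 ± 0.28 (SE, adjusted p = 0.0231, limma). Lonp2, the Lon protease of the peroxisome, had 11.76, 11.74, 11.59 and 11.67 at 1 µM after 6 h, against 10.98, 11.09, 10.81 and 10.78 at 0 µM. At 2 h it had 11.23, 11.14 and 11.23 at 1 µM, against 11.12, 10.94 and 11.02 at 0 µM. Its 2 h groups were separate by a narrow margin, and its growth of 0.55 ± 0.12 with the block (SE, adjusted p = 0.0327, limma) was the smallest of the 9.

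The activation and transport of fatty acids gave another pair. Acsl1, the acyl-CoA synthetase that activates long-chain fatty acids, had log2 values of 12.03, 12.12, 11.74 and 11.88 at 1 µM after 6 h, against 10.34, 11, 10.14 and 10.15 at 0 µM. The 2 h arrays had 11.31, 10.71 and 11.07 at 1 µM, against 10.76, 10.20 and 10.55 at 0 µM. The groups stood apart at 6 h and overlapped at 2 h. The growth was 0.97 ± 0.20 with the block (SE, adjusted p = 0.0155, limma), and another probe set of the gene gave 1.49 in the fit without it. Slc25a20, the translocase that exchanges carnitine for acylcarnitine across the inner mitochondrial membrane, had 10.17, 10.07, 9.86 and 10.07 at 1 µM after 6 h, against 9.29, 9.16, 8.82 and 8.86 at 0 µM. At 2 h the values were 9.52, 9.36 and 9.40 at 1 µM, against 9.42, 8.82 and 9.09 at 0 µM. Its growth was 0.62 ± 0.13 with the block (SE, adjusted p = 0.0155, limma), again with an overlap at 2 h that the high 0 µM array of Rs627 made.

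Of the remaining 4, Gk encodes glycerol kinase, which makes glycerol 3-phosphate from the glycerol of broken-down triglyceride. Its log2 values were 11.54, 11.68, 10.86 and 11.28 at 1 µM after 6 h, against 9.62, 9.96, 8.80 and 9.07 at 0 µM, and after 2 h 10.72, 9.81 and 10.38 at 1 µM, against 9.84, 9.22 and 9.51 at 0 µM. The change was 3.94-fold at 6 h and 1.72-fold at 2 h, and the growth with the block was 1.17 ± 0.24 (SE, adjusted p = 0.0155, limma). Aig1, a membrane hydrolase of fatty acid esters of hydroxy fatty acids, was 2.72-fold higher at 6 h and 1.32-fold at 2 h, with a growth of 1.08 ± 0.23 with the block (SE, adjusted p = 0.0162, limma). Pgrmc2, a heme-binding membrane protein, was 2.16-fold higher at 6 h and 1.40-fold at 2 h, was in the first wave, and grew by 0.58 ± 0.13 with the block (SE, adjusted p = 0.0327, limma). Vwa8, a mitochondrial ATPase-domain protein, had a change of -0.11 at 2 h on the probe set used, while its other probe sets gave 0.11 and -0.04, so its direction at 2 h was not settled. It had 8.77, 8.89, 8.45 and 8.56 at 1 µM after 6 h, against 7.84, 8.03, 7.59 and 7.76 at 0 µM, a complete separation. The 2 h values were 8.0, 7.37 and 7.63 at 1 µM, against 8.02, 7.48 and 7.84 at 0 µM, with differences of -0.10 within Rs631 and -0.21 within Rs632. The growth with the block was 0.93 ± 0.21 (SE, adjusted p = 0.0327, limma).

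The growth of all 9 lay above 0 in both Rs631 and Rs632. By group means, the larger part of the growth lay in the 1 µM cultures. The log2 difference of 6 h minus 2 h was between 0.49 and 1.45 at 1 µM and between -0.25 and 0.08 at 0 µM. At 1 µM it passed for 9 of 9 (largest adjusted p = 0.0103, limma), where 330 genes or 3.73% passed over all genes. At 0 µM it passed for none of the 9 (smallest adjusted p = 0.725, limma), where 133 genes or 1.5% passed. With the block the difference was between 0.46 and 1.38 at 1 µM, past the threshold for 9 of 9 where 10.3% of all genes passed, and between -0.26 and 0.05 at 0 µM, past for 0 of 9 where 4.4% passed. Within Rs627, Rs631 and Rs632 the 0 µM difference of Ehhadh was -0.69, -0.37 and -0.73. In those rats it was -0.65, -0.37 and -0.39 for Hacl1, -0.22, -0.41 and -0.44 for Gk and -0.18, 0.12 and -0.08 for Vwa8. For Ehhadh, Hacl1 and Gk the 0 µM level was thus lower at 6 than at 2 h in each of these rats. With the block these 0 µM differences were -0.26, -0.23 and -0.22 and did not pass (adjusted p = 0.614, 0.583 and 0.523, limma). Acsl1, Lonp2 and Aig1 were also lower in each of these rats, while Slc25a20, Pgrmc2 and Vwa8 were not. The 6 h group at 0 µM also holds Rs628, which the 2 h group at 0 µM lacks. These parts come from the same arrays as the growth that chose the genes and are given as a description. With the block, 5 of the 9 (Ehhadh, Pgrmc2, Gk, Acsl1 and Slc25a20) also passed at 2 h, so that the membership of the second wave depended on whether the rat was in the fit.

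**Figure D2:**
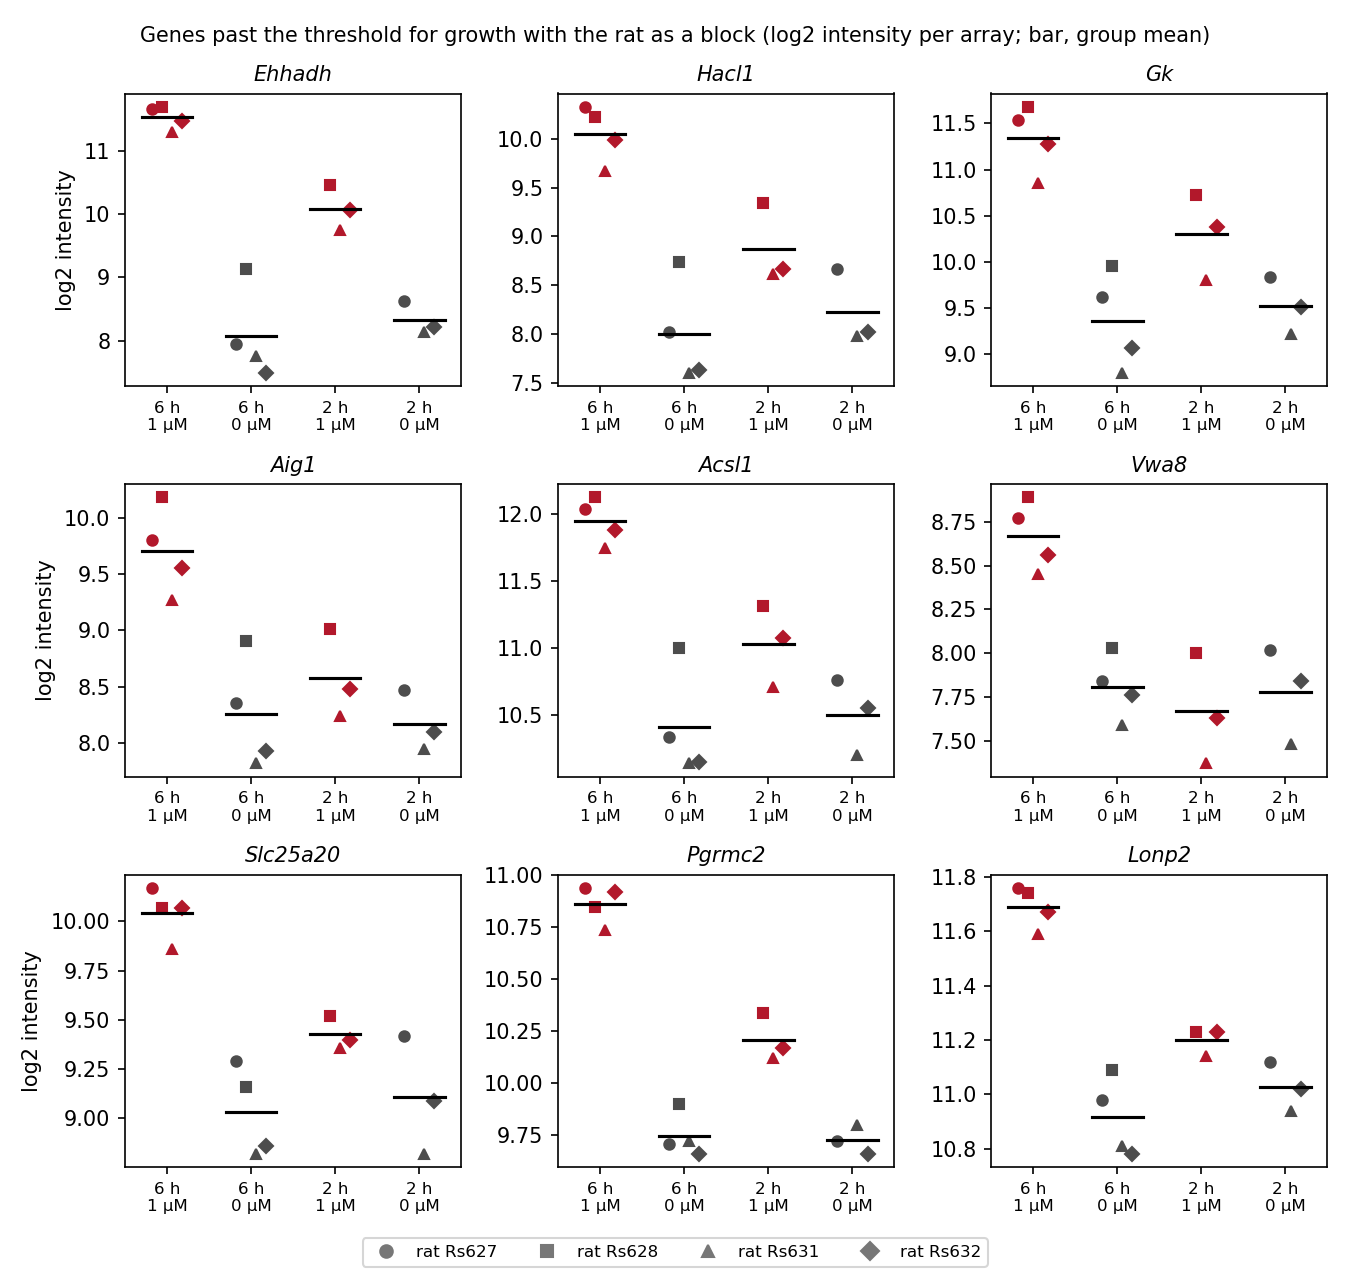
Log2 intensity of the 9 genes past the threshold for growth with the rat as a block, 1 point per array, with the rat shown by the marker shape, 1 µM in red and 0 µM in grey, and a bar at each group mean. In each panel the 4 arrays at 1 µM and 6 h lie above all others, and the 0 µM groups of 6 and 2 h overlap.

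Later arrays, which the growth contrast did not use, also read higher for these 9 genes in the fit without the rat. At 0 µM the 12 h group lacks Rs632 and the 24 h group lacks Rs628, while the 1 µM groups hold both rats. For Ehhadh the log2 change reached 4.25 at 12 h, 4.33 at 24 h and 4.82 at 72 h. Hacl1 stood at 2.88, 3.18 and 3.30, Aig1 at 2.25, 2.92 and 2.91, and Vwa8 at 1.51, 1.80 and 1.92 at 12, 24 and 72 h. All 9 were higher at 1 µM than at 0 µM at 12 h (adjusted p under 0.05, limma), where 350 genes or 3.96% of all were higher. So were 114 of the 127 higher second-wave genes and 26 of the 31 higher first-wave genes, sets that hold the 9. Being higher at 12 h was thus not particular to the 9. In all 9 the 12 h change was above the 6 h change. That further step was between 0.16 and 0.83 on the log2 scale and passed for none of the 9 (smallest adjusted p = 1, limma). At 10 µM, compared with the same 0 µM arrays, the log2 change of Ehhadh was 3.43 at 6 h and 1.84 at 2 h, that of Gk 1.99 and 0.79, that of Hacl1 2.06 and 0.63, and that of Vwa8 0.80 and -0.18. At 0.1 µM, again with those controls, Ehhadh changed by 2.83 at 6 h and 1.34 at 2 h, and Gk by 1.59 and 0.64. The 6 h groups at 10 and 0.1 µM lack Rs628, which their controls hold.

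The first wave behaved as a mixture. Of its 31 higher genes 17 had a growth above 0 and 14 below, with a median of 0.12, where the median over all genes was -0.07 and 35.3% of them lay above 0. The genes were chosen by a high value at 2 h, which enters the growth with a minus sign, so these are descriptions. Their median log2 change was 1.04 at 2 h, 1.30 at 6 h and 1.46 at 12 h. Between 2 and 6 h the median of the 31 moved by 0.20 at 1 µM and by 0.07 at 0 µM.

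Genes of fuel selection had overlapping 1 µM levels at 6 and 2 h. Pdk4, the kinase that shuts off pyruvate dehydrogenase and so spares glucose, had the largest change of the first wave at 2 h. Its log2 values were 12.39, 12.38, 12.09 and 11.77 at 1 µM after 6 h in Rs627, Rs628, Rs631 and Rs632, against 9.86, 10.39, 8.65 and 8.32 at 0 µM. After 2 h they were 12.25, 12.16 and 12.29 at 1 µM in Rs628, Rs631 and Rs632, against 9.78, 7.43 and 7.84 at 0 µM in Rs627, Rs631 and Rs632. The 1 µM arrays of both times lay between 11.77 and 12.39, while the 0 µM arrays spread widely between rats. Within Rs627, Rs631 and Rs632 the 0 µM level of Pdk4 was higher at 6 than at 2 h by 0.07, 1.22 and 0.47. The blocked fit gave 0.88 ± 0.33 for this difference, which did not pass (SE, adjusted p = 0.113, limma). The change was 7.23-fold at 6 h (log2 2.85, adjusted p = 7.46e-07) and 14.7-fold at 2 h (3.88, adjusted p = 7.87e-08, limma), with a growth of -1.03 ± 0.65 (SE, adjusted p = 1.000, limma). The growth was -1.29 in Rs631 and -1.0 in Rs632. A dimmer probe set of Pdk4 gave a growth of -0.25, with 3.40 at 6 h and 3.65 at 2 h, so the size of this value differed between probe sets.

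Angptl4, a secreted inhibitor of lipoprotein lipase, also had overlapping 1 µM levels at 6 and 2 h. Its log2 values were 11.39, 11.85, 11.81 and 11.67 at 1 µM after 6 h, against 10.60, 11.30, 10.32 and 10.66 at 0 µM. After 2 h they were 11.89, 11.63 and 11.91 at 1 µM, against 10.55, 9.61 and 10.16 at 0 µM. Between 2 and 6 h the 1 µM level differed by -0.13 (adjusted p = 0.821, limma), and the 0 µM level was higher by 0.62 at 6 h (adjusted p = 0.0246, limma). The 6 h group at 0 µM holds Rs628, which the 2 h group at 0 µM lacks. Within Rs627, Rs631 and Rs632 the 0 µM level of Angptl4 differed by 0.06, 0.71 and 0.50 between these times, and the blocked fit gave 0.61 ± 0.16 (SE, adjusted p = 0.015, limma). The growth was -0.75 ± 0.23 (SE, adjusted p = 0.805, limma), so the difference between the 1.95-fold change at 6 h and the 3.26-fold change at 2 h did not pass the threshold over all genes. Txnip, the thioredoxin-binding α-arrestin that restrains glucose uptake, had 11.25, 11.45, 11.09 and 11.29 at 1 µM after 6 h, against 9.71, 10.35, 9.09 and 9.42 at 0 µM. After 2 h it had 11.49, 10.81 and 11.41 at 1 µM, against 9.95, 8.45 and 9.29 at 0 µM. The difference of 6 h minus 2 h was 0.04 at 1 µM and 0.41 at 0 µM, neither past the threshold (adjusted p = 0.983 and 0.613, limma). Within Rs627, Rs631 and Rs632 the 0 µM difference of Txnip was -0.24, 0.65 and 0.13, so its direction varied between rats. Of the 14 first-wave genes with a growth below 0, 9 had a 1 µM mean that was lower at 6 than at 2 h and 11 had a 0 µM mean that was higher. The difference between the times passed at 1 µM for 10 of the 33 and at 0 µM for 2, Angptl4 and Tnfrsf1b, a TNF receptor. Over all genes 3.73% passed at 1 µM and 1.5% at 0 µM. Tnfrsf1b read 4.40, 4.16 and 3.79 at 0 µM after 2 h. Its change at 2 h and its difference at 0 µM thus use values under the floor of 5. Blocking on the rat gave 14 of the 33 at 1 µM and 5 at 0 µM, where 10.3% and 4.4% of all genes passed. At 0 µM Apol9a (0.58) and G0s2 (1.09), higher at 6 h, and Rab30 (-0.51), lower at 6 h, joined Angptl4 and Tnfrsf1b.

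Several other first-wave genes had group-mean changes of like size at both times, while Cyp4a1 changed more at 6 h. Sgk2, a serum- and glucocorticoid-regulated kinase, had 7.11, 7.09, 7.23 and 7.43 at 1 µM after 6 h, against 5.08, 5.27, 5.29 and 5.17 at 0 µM. At 2 h it had 7.12, 7.15 and 7.42 at 1 µM, against 5.71, 5.49 and 5.42 at 0 µM, the same range at 1 µM. Ppcs, an enzyme of coenzyme A synthesis, changed by 1.31 at 6 h and 1.49 at 2 h, and Pdp2, the phosphatase that switches pyruvate dehydrogenase back on, by 0.80 and 0.97. Cyp4a1, a fatty acid ω-hydroxylase whose close relatives may share its probes, changed by 2.07 at 6 h and 1.54 at 2 h. Within Rs628, Rs631 and Rs632 its 1 µM level was higher at 6 than at 2 h by 0.42, 0.74 and 0.45. Within Rs627, Rs631 and Rs632 its 0 µM level differed by -0.28, -0.3 and -0.44 between these times. Kcnk5, a potassium channel, was lower at both times, by -1.06 at 6 h and -1.03 at 2 h. For none of these 5 did growth pass, and the 95% intervals of growth ran from -0.44 to 1.09 for Sgk2, from -0.28 to 1.34 for Cyp4a1 and from -0.64 to 0.58 for Kcnk5, so growth or decline within these bounds was not detectable.

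Transcription factors were among the part of the first wave that passed at 2 h and not at 6 h. Mafk, a small Maf protein that pairs with other leucine zipper factors, had 7.71, 7.76, 7.87 and 7.87 at 1 µM after 6 h, against 7.60, 7.62, 7.60 and 7.65 at 0 µM. The 2 h arrays had 8.48, 8.37 and 8.43 at 1 µM, against 7.72, 7.81 and 7.79 at 0 µM. The 3 arrays at 1 µM and 2 h lay above all others, and the 1 µM level was lower at 6 than at 2 h (log2 -0.63, adjusted p = 0.00225, limma). Cebpb, a factor of liver metabolism and the acute phase, changed by 0.39 at 6 h (adjusted p = 0.259, limma) and by 0.76 at 2 h (adjusted p = 0.0111, limma). Ets2, an ETS family factor, changed by 0.55 at 6 h and 0.96 at 2 h, both past the threshold. The 6 first-wave genes that did not pass at 6 h were Mafk, Cebpb, Znf750, Tnfrsf1b, Tbc1d2 and Zfp455l1, of which Zfp455l1 passed there with the block (adjusted p = 0.0466, limma). Znf750, a zinc finger factor known from epidermis, had 7.29, 7.40, 7.26 and 7.32 at 1 µM after 6 h, against 7.30, 8.0, 7.53 and 7.53 at 0 µM. After 2 h it was lower at 1 µM, with 5.79, 6.02 and 6.29, against 7.38, 6.71 and 7.26 at 0 µM. None of these differences in growth passed (Mafk -0.47 ± 0.20, Cebpb -0.37 ± 0.22, Ets2 -0.41 ± 0.18, Znf750 0.81 ± 0.33, SE, each with an adjusted p of 1.000, limma).

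Rhob, a small GTPase known as an early-induced gene, had the same shape outside the first wave. It had 10.17, 10.26, 10.39 and 10.32 at 1 µM after 6 h, against 10.44, 10.45, 10.39 and 10.46 at 0 µM. At 2 h the values were 10.92, 11.06 and 11.06 at 1 µM, against 10.38, 10.20 and 10.44 at 0 µM, with the 1 µM arrays above all others. At 2 h it missed the threshold (0.67, adjusted p = 0.0862, limma), and it passed once the block was added (adjusted p = 0.0155, limma). Its growth of -0.82 ± 0.24 did not pass (SE, adjusted p = 0.649, limma), nor did the -0.75 ± 0.19 of the blocked fit (SE, adjusted p = 0.0983, limma). A block fitted separately within each time, chosen after seeing the data, gave -0.83, which passed (adjusted p = 0.00769, limma).

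**Figure D3:**
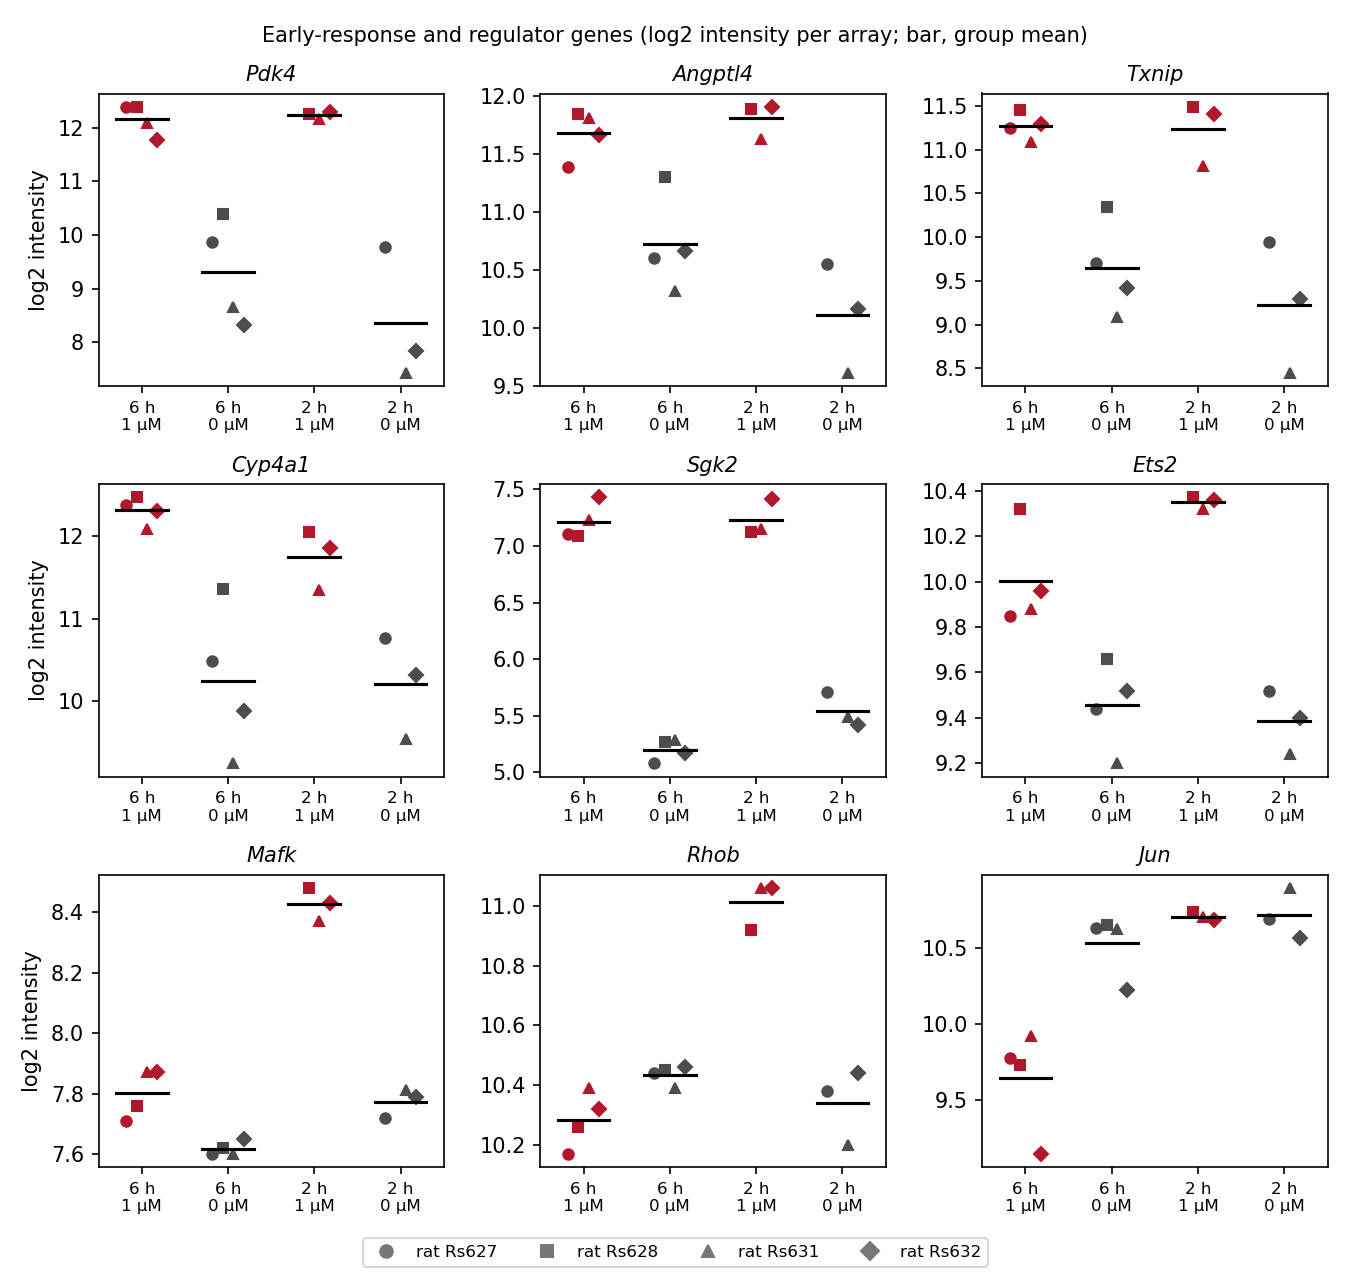
Log2 intensity of 9 early-response and regulator genes, 1 point per array, with the rat shown by the marker shape, 1 µM in red and 0 µM in grey, and a bar at each group mean. For Pdk4, Angptl4 and Txnip the 1 µM arrays of 6 and 2 h share a range, for Mafk and Rhob the 3 arrays at 1 µM and 2 h stand alone at the top, and for Jun the 4 arrays at 1 µM and 6 h stand alone at the bottom.

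The carnitine shuttle had the highest median growth of the oxidation lists. Of 7 tested members, 6 passed at 6 h and 2 at 2 h (Crat and Slc22a5), all higher, where 1.73% and 0.351% of all genes were higher. With the block the same count was 6 at 6 h and 6 at 2 h, so that Cpt1a, Cpt1b, Cpt2 and Slc25a20 joined at 2 h, where 2.95% and 0.746% of all genes were higher. The growth was above 0 in 7 of 7 with a median of 0.70, against a median of -0.07 and 35.3% above 0 over all genes. Cpt1a, the enzyme that commits long-chain fatty acids to mitochondrial entry, had 10.70, 10.77, 10.48 and 10.55 at 1 µM after 6 h, against 9.18, 9.33, 8.40 and 8.64 at 0 µM, and after 2 h 9.84, 9.13 and 9.35 at 1 µM, against 9.02, 8.18 and 8.51 at 0 µM. Its growth of 0.84 ± 0.24 with the block did not pass (SE, adjusted p = 0.319, limma). Cpt2, its partner on the inner membrane, changed by 1.16 at 6 h and 0.46 at 2 h, and Crat, carnitine acetyltransferase, by 2.07 and 1.09. The growth of Crat was 0.95 ± 0.24 with the block (SE, adjusted p = 0.107, limma), and with the block within each time it was 0.92 and passed (adjusted p = 0.0217, limma). Slc22a5, the carnitine importer of the cell surface, changed by 1.62 at 6 h and 1.07 at 2 h. Cpt1c, known mainly from brain, was the member that did not pass at 6 h (0.11). It lay under the floor of 5 in all 14 arrays, so its change and its growth, counted above, use values under the floor.

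Mitochondrial β-oxidation itself had 7 of 18 genes past the threshold at 6 h, all higher, and none at 2 h, and with the block 10 at 6 h and still none at 2 h. Over all genes 1.73% were higher at 6 h and 0.351% at 2 h, or 2.95% and 0.746% with the block. The 7 were Acadm, Acaa2, Eci1, Acadvl, Hadh, Hadha and Hadhb, with log2 changes between 0.36 for Hadhb and 0.81 for Acadm. They hold dehydrogenases, a thiolase, an isomerase and the trifunctional protein of the cycle. Other acyl-CoA dehydrogenases were not among them. At 6 h Acads changed by 0.32, Acadl by 0.15, Acad9 by 0.01, Acad10 by -0.05, Acad8 by -0.11 and Acadsb by -0.40. The median growth was 0.25, with 77.8% of the 18 above 0, against 35.3% of all genes. Acadm changed by 0.81 at 6 h and 0.17 at 2 h, and Hadha by 0.46 and 0.08. A dimmer probe set of Hadha gave 0.76 at 6 h and 0.59 at 2 h, and one of Acaa2 gave 1.69 and 1.37, against 0.79 and 0.31 on the probe set used, so the size at 2 h depended on the probe set. The list's median change was 0.34 at 6 h and 0.10 at 2 h, against 1.62 and 0.84 for the carnitine shuttle.

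Peroxisomal oxidation had 7 of 13 past at 6 h and 1 of 13, Ehhadh, at 2 h, all higher, with a median growth of 0.29 and 13 of 13 above 0. All genes gave 1.73% higher at 6 h, 0.351% higher at 2 h and 35.3% with growth above 0. With the block 4 passed at 2 h, with Ech1, Eci2 and Crot beside Ehhadh, against 0.746% of all genes. Abcd3, a fatty acid importer of the peroxisome, changed by 1.02 at 6 h and 0.35 at 2 h, and Ech1, an isomerase, by 0.88 and 0.38. Hsd17b4, the second bifunctional enzyme, changed by 0.48 and 0.19. Among 13 genes of peroxisome assembly and division 4 passed at 6 h and none at 2 h, set against the same shares of all genes, led by Pex11a, which drives division of the organelle, with 1.70 at 6 h and 1.07 at 2 h, and Pex11a also passed at 2 h with the block. Pex19 and Pex16, which insert peroxisomal membrane proteins, changed by 0.66 and 0.83 at 6 h.

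Acyl-CoA thioesterases, which release free fatty acid from CoA, had 5 of 8 past at 6 h and 2 of 8 at 2 h, all higher, with a median growth of 0.35 and 8 of 8 above 0, where the shares of all genes were 1.73%, 0.351% and 35.3%. Acot1 and Acot2 are close copies whose probes may read each other. Acot1 had 11.30, 11.81, 10.47 and 10.56 at 1 µM after 6 h, against 5.39, 7.44, 3.27 and 3.91 at 0 µM, and after 2 h 9.29, 6.80 and 7.73 at 1 µM, against 5.33, 3.65 and 3.95 at 0 µM. With values under 5 set to 5, it was at least 40.1-fold higher at 6 h and at least 7.11-fold higher at 2 h, and the growth of 2.40 ± 0.99 uses values under that floor. Acot7 changed by 1.31 at 6 h and 0.45 at 2 h, and Acot12 by 1.38 and 0.35.

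Among 12 lipid droplet and lipolysis genes, 6 passed at 6 h and 2 at 2 h (Plin2 and G0s2), all higher, beside 1.73% and 0.351% of all genes. G0s2, the inhibitor of the lipase Pnpla2, was early, with 2.00 at 6 h and 1.75 at 2 h, while Pnpla2 itself changed by 1.23 at 6 h and 0.37 at 2 h, and Mgll, which completes triglyceride breakdown, by 1.05 and 0.20. The growth was 0.25 ± 0.55 for G0s2, 0.86 ± 0.23 for Pnpla2 and 0.85 ± 0.23 for Mgll (SE). With the block the growth was 0.81 ± 0.20 for Pnpla2 (SE, adjusted p = 0.0970, limma) and 0.77 ± 0.19 for Mgll (SE, adjusted p = 0.0832, limma), short of the threshold. Plin2, the coat protein of droplets, changed by 0.64 at 6 h and 0.42 at 2 h on its brightest probe set, and another of its probe sets gave 0.05 and -0.17.

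The list of glycerol handling had a median growth of 0.67 over 7 genes, with 3 higher at 6 h (Gk, Gpd2 and Gpd1) and 1 at 2 h (Gpd2), or 4 at 6 h and these 3 at 2 h with the block. The shares of all genes higher were 1.73% at 6 h and 0.351% at 2 h, or 2.95% and 0.746% with the block. The list's largest growth values were 1.95 for Aqp3 and 1.36 for Aqp7. Aqp3 lay under the floor of 5 in every 2 h array and every 0 µM array. At 1 µM after 6 h it had 7.22, 6.49, 3.23 and 4.65 in Rs627, Rs628, Rs631 and Rs632, so its growth uses values under the floor. Acat1, a thiolase of ketone body and isoleucine metabolism, changed by 1.05 at 6 h and 0.42 at 2 h, with a growth of 0.58 ± 0.14 with the block (SE, adjusted p = 0.0819, limma). The ketone list as a whole had a median growth of 0.09 over 5 genes. The pyruvate dehydrogenase list, with 12 genes, had a median of -0.02, and the ω-oxidation list, with 7, a median of -0.07. Of 22 nuclear receptors and coregulators, Creb3l3 and Rxrg were higher at 6 h and none passed at 2 h, again beside 1.73% and 0.351% of all genes. Creb3l3, a liver transcription factor of the fasting response, changed by 1.02 at 6 h and 0.35 at 2 h, and Rxrg, a partner of PPARα, by 1.47 and 0.61. Fgf21, the fasting hormone, changed by 0.96 at 6 h and 1.20 at 2 h and passed at neither time (adjusted p = 0.249 and 0.578, limma).

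Immediate early genes, the first responders to growth factors and stress, had growth below that of all genes. Of 18 tested, 3 passed at 6 h, all lower at 1 µM, and none at 2 h, or 6 at 6 h and none at 2 h with the block. Over all genes 0.305% were lower at 6 h and 0.0226% at 2 h, or 1.75% and 0.0905% with the block. The growth was above 0 in 5.56% of them, against 35.3% of all genes, with a median of -0.47. Jun, a subunit of the AP-1 factor, had 9.78, 9.73, 9.92 and 9.15 at 1 µM after 6 h, against 10.63, 10.65, 10.62 and 10.22 at 0 µM. The 2 h values were 10.73, 10.70 and 10.68 at 1 µM, against 10.69, 10.89 and 10.56 at 0 µM. The groups coincided at 2 h and stood apart at 6 h, where the change was -0.88 (adjusted p = 0.00843, limma), and the growth of -0.79 ± 0.22 with the block did not pass (SE, adjusted p = 0.168, limma). With the block within each time it was -0.81 and passed (adjusted p = 0.0115, limma). Jund, its relative, changed by -0.42 at 6 h and -0.12 at 2 h, and Dusp1, a phosphatase that turns off MAP kinases, by -0.59 and -0.19. Over all genes, the median of 6 h minus 2 h was 0.02 at 1 µM and 0.08 at 0 µM.

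**Figure D4:**
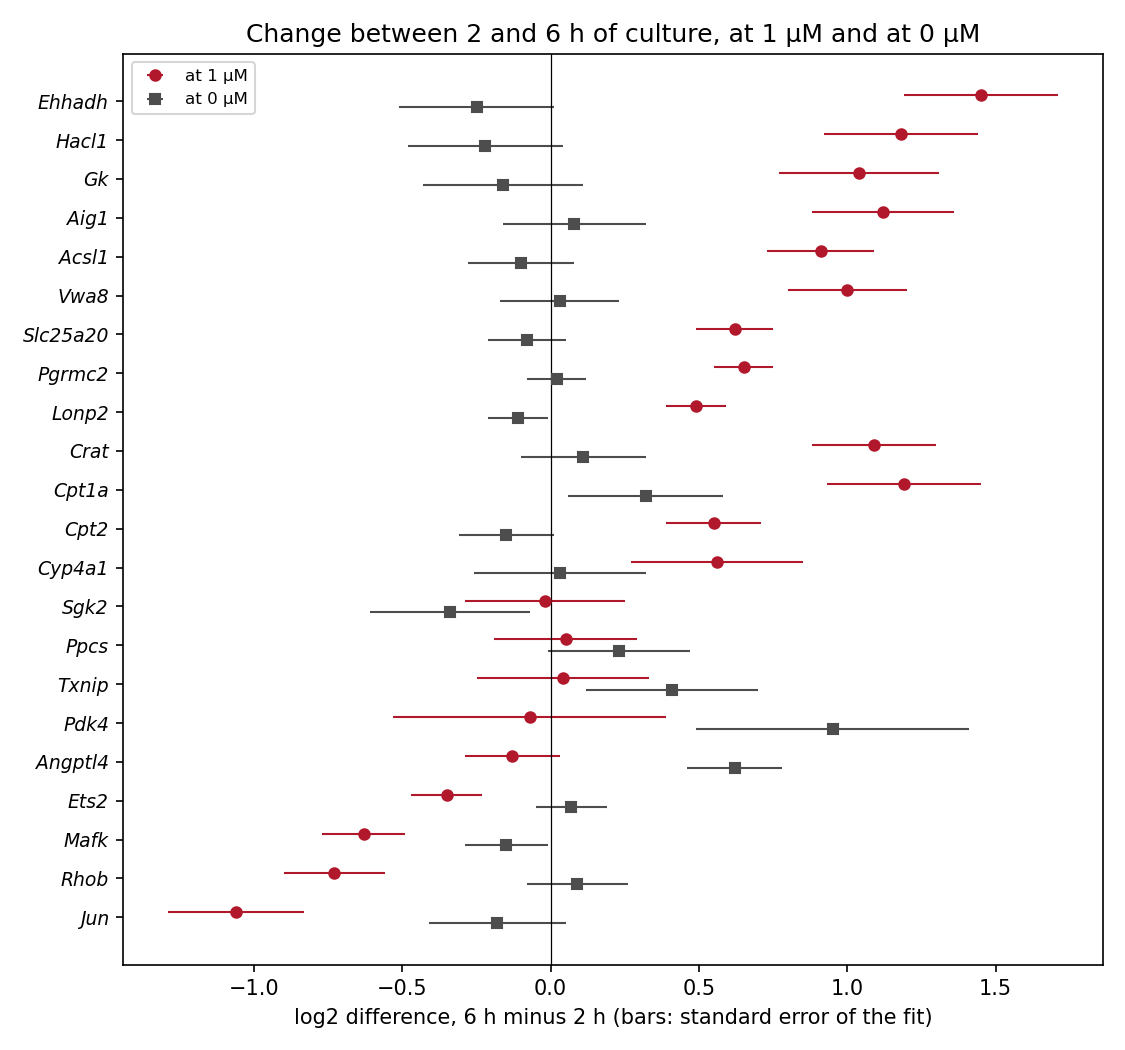
Log2 difference of 6 h minus 2 h at 1 µM (red circles) and at 0 µM (grey squares) for 22 genes, with bars of 1 standard error from the fit without the rat. The 9 genes at the top differed more at 1 µM than at 0 µM, where they lay between -0.25 and 0.08. Pdk4 and Angptl4 differed more at 0 µM than at 1 µM, and Mafk, Rhob and Jun lay below 0 at 1 µM.

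**Figure D5:**
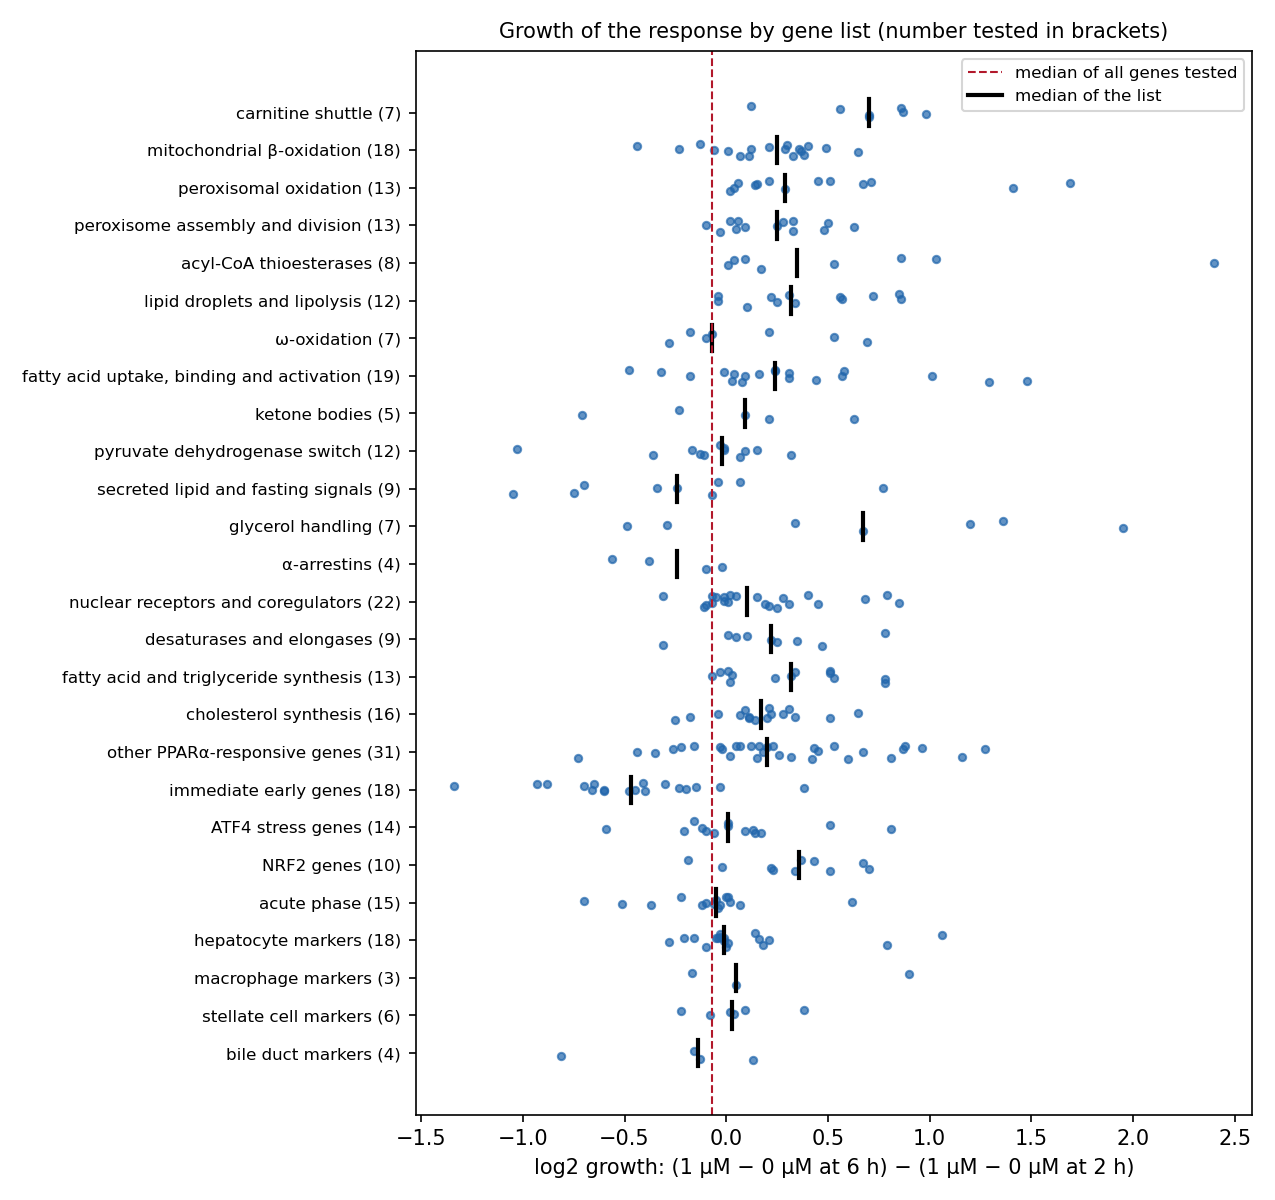
Log2 growth of each tested member of the gene lists with 3 or more tested members, 1 point per gene, a black bar at the list's median and a dashed line at the median of all genes (-0.07). The carnitine shuttle (0.70) and glycerol handling (0.67) have the highest medians and the immediate early genes (-0.47) the lowest. Points are spread vertically at random.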

How the data were processed

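Affymetrix rat arrays were hybridised with biotin-labelled RNA, per the labels' protocols, and the authors deposited a log2 intensity for each probe set on each array. Per the submitters' processing notes, the tools were GCRMA and Partek, with no version, role or order given. Array medians ran from 4.13 to 4.46, and the values were used without further scaling.

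Of 31139 probe sets, 19069 had 1 gene symbol in the platform annotation, 572 several and 11498 none, and 18989 were found in RefSeq's rat gene table. Each of 13439 genes was read from the probe set brightest on average over the 100 arrays, and 8843 above log2 5 in at least 3 arrays were tested. One limma 3.58.1 fit in R 4.3.3 had 30 group means, 70 residual degrees of freedom and no rat. Tests were two-sided at a Benjamini-Hochberg adjusted p of 0.05 over all genes, and the fit was tested on simulated data. The simulated data held no difference between rats, so they cannot show how the fit without the rat handles such differences. Precision is limited by the number of arrays.

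A rule set the genes to name: those past for growth, up to 20 first-wave genes by size, up to 6 members of each list by the p of growth, and known PPARα targets. The text did not follow it in full. Fabp1 (log2 change 2.35 at 6 h and 0.87 at 2 h, growth 1.48), Cd36, Vnn1, Colq and Tpcn2 are among those left undescribed. Mafk, Ets2 and Rhob are among the genes described though the rule did not select them. The genes, lists and waves were chosen with earlier results of these data known. Rats pair the arrays, as the labels give the same animal. The rat as a block was an alternative. Random blocks used statmod 1.5.0, and matplotlib 3.10.9 under Python 3.11.15 drew the figures. The plate-like position in the titles repeats for 23 arrays (87 positions). Plates and dates are not named.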

Additional observations from a re-analysis of the deposited data

Results flagged for a closer look

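Single arrays stood apart from the other 3 of their group in 3 of 108 groups of 4 arrays, by Dixon's ratio of gap to range at its 95% critical value. The 108 were 104 groups of 1 gene (52 genes in both 6 h groups) and 4 groups of an array quality value. Chance alone gives about 1 in 20 groups, so 3 of 108 is not more than chance gives. Ppp2r2d, a phosphatase subunit of the first wave, read 10.1 in Rs631 at 1 µM after 6 h, with the other rats between 9.86 and 9.90. Slc34a2, a phosphate transporter of the first wave, read 6.22 in Rs631 at 0 µM after 6 h, with the others between 8.15 and 8.28, and the same rat read 5.42 at 0 µM after 2 h, with 8.35 and 8.20 in the others. Tnfrsf1b read 4.69 in Rs628 at 0 µM after 6 h, with the others between 5.21 and 5.28.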

How the results depend on the processing

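The counts of genes past the threshold for growth, at 6 h and at 2 h were 0, 180 and 33 as reported. They were 9, 416 and 74 with the replicate block (the rat), which pairs arrays of 1 animal, 9, 382 and 73 with the rat as a random block, and 4, 138 and 33 with the block in Rs631 and Rs632 alone. A replicate block within time, chosen after seeing the data, gave 17, 580 and 108, and the 17 held the 9 genes of the plain block, Crat, Crot, Hsdl2, Me1 and Acot7 above 0, and Jun, Rhob and F11r below it. Quantile normalization gave 3 growth genes and leaving out arrays at repeated positions gave 3, all among the 9. Each probe set as a feature gave 54 at 2 h. Leaving out 1 rat gave 0 to 4 growth genes, 104 to 140 genes at 6 h and 10 to 22 at 2 h. The lowest counts at 6 h (104) and 2 h (10) came without Rs632, and the 4 growth genes came without Rs628: Ehhadh, Pgrmc2, Acsl1 and Cpt2. Without Rs627, 109 passed at 6 h and 21 at 2 h, and without Rs628, 17 passed at 2 h. For the growth of 52 named genes, 720 of 778 values under alternatives kept direction and side of the threshold, 42 gained it and 16 moved. None of these genes was called for growth as reported, so no call could reverse. Why the counts move between settings was not tested.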
